A study of Homo sapiens with 34 samples.

Results

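The 9 genes described here mark the intestinal epithelium, and were followed through 34 peak lists of a histone H3 lysine 9 methylation mark: CDX1, ASCL2, LGR5, VIL1, KRT20, CDH17, GPA33, MUC2 and LGALS4. They were chosen by name for what they do in the gut, with earlier results of these data known, and are 9 of the 19974 protein-coding genes examined. A gene counted as having a peak in a library when a peak touched the gene or the 2 kb on either side of it. The data are CUT&Tag, in which an antibody leads a transposase to marked chromatin, with a rabbit antibody labelled anti-H3K9me, the degree of methylation not being given. Both human cancer lines used carry MYC on extrachromosomal DNA. PC3 DM is a prostatic adenocarcinoma line and COLO320 DM a colorectal one. All libraries came from 50000 nuclei, 3 days after lipofection of 700 ng of an sgRNA plasmid, and the series describes CRISPR-based perturbation of the epigenome. In PC3 DM the plasmids were the empty vector (2 libraries), ecSE1, ecSE2 and ecSE6 (3 each), ecSE7 (2) and ecSEcombo (3). In COLO320 DM they were the vector, ecSE1, ecSE2, ecSE3, ecSE4 and ecSEcombo, with 3 libraries each. The labels do not say where the ecSE elements lie, what ecSEcombo covers, which effector was used or whether replicates were separate cultures. The p-values below thus reflect variation among these libraries, possibly only technical.

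Methylation of histone H3 at lysine 9 is best known from heterochromatin, where the di- and trimethylated forms mark silent genes and repeats, whereas the monomethylated form is also found at active genes. The intestinal epithelium is renewed from crypt stem cells, which carry the receptor LGR5 and depend on the transcription factor ASCL2. Their daughters become absorptive cells with a brush border, or goblet cells that secrete mucus, under caudal-type homeobox factors such as CDX1. Peak lists hold no expression values, so whether these genes were active in either line was not measured here.

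The lists differed much in length, from 10288 to 102290 peaks in PC3 DM and from 9385 to 125214 in COLO320 DM. The longest, with 125214 peaks, was COLO320 DM ecSE1 replicate 2, and the next, with 102290, was PC3 DM ecSEcombo replicate 1. Sequencing depth is unknown, since no read totals entered this work. Results are therefore also given for lists of equal length, the best 9385 peaks of each library by q-value.

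Together the 9 genes held 92 peaks, 54 in PC3 DM and 38 in COLO320 DM, in 29 of the 34 libraries. CDH17, LGR5, GPA33 and MUC2 held 86 of them. CDH17 had a peak in 19 libraries, LGR5 in 14, and GPA33 and MUC2 in 10 each. Their windows, of 94.1, 151, 41.5 and 39.6 kb, are the longest of the 9, and these counts are not scaled to length. VIL1 had a peak in 3 libraries, CDX1, KRT20 and LGALS4 in 1 each, and ASCL2 in none. The median protein-coding gene had a peak in 3 libraries, and 20.3% of coding genes had one in no library. The peaks were small. Their width ran from 154 to 769 bp with a median of 263.5 bp, and the authors' fold enrichment over local background, which is each peak's own value, from 3.72 to 9.83 with a median of 5.23. The number of fragments at the summit, recovered from the fold and p-value for all 92 peaks, was 4 to 33 with a median of 7. Only 26 of the 92 peaks were among the best 9385 of their library, and 8 lay in the flanks alone.

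**Figure D1:**
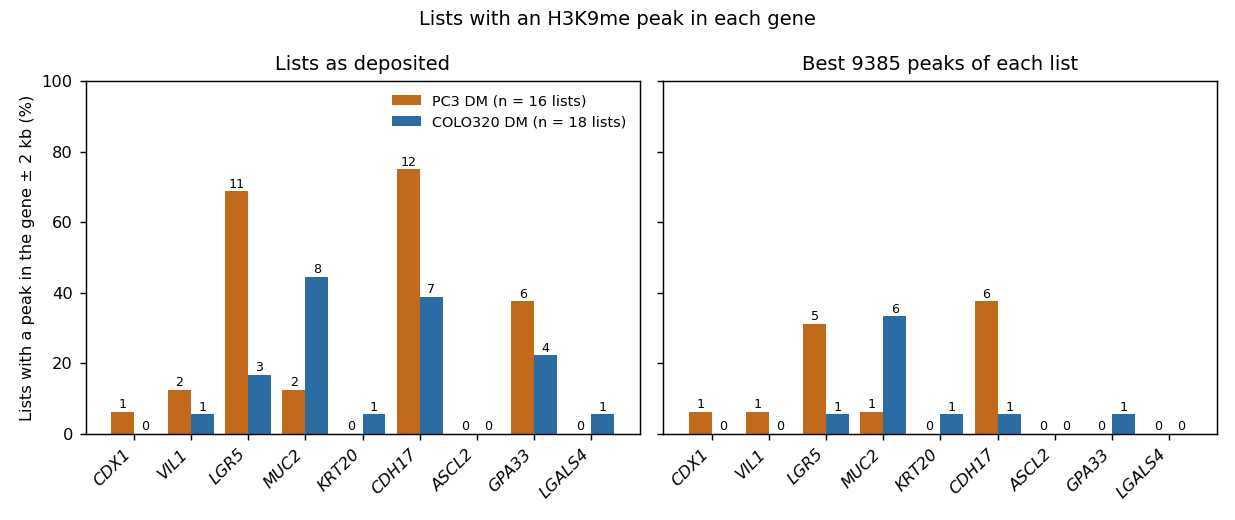
Share of libraries with a peak (percent, vertical axis) for each of the 9 genes, in PC3 DM (16 libraries) and COLO320 DM (18 libraries), with the lists as deposited and with the best 9385 peaks per list. LGR5 (11 of 16 against 3 of 18) and CDH17 (12 of 16 against 7 of 18) had the higher share in PC3 DM and MUC2 (8 of 18 against 2 of 16) in COLO320 DM, and each of these 3 differences is smaller in lists of equal length.

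The 4 members with a promoter in the RefSeq table (GRCh38.p14) are shown because no peak of any list lay over them, from 250 bases before to 50 bases after the start. The 250 bases before each start are printed 5′ to 3′ on the gene's own strand, at chr11:1074624-1074873 (plus strand, MUC2), chr17:40885243-40885492 (minus, KRT20), chr1:167090378-167090627 (minus, GPA33) and chr19:38812946-38813195 (minus, LGALS4). Capitals mark the core of the caudal-type motif, TTTATG, found here on the opposite strand as CATAAA.
MUC2: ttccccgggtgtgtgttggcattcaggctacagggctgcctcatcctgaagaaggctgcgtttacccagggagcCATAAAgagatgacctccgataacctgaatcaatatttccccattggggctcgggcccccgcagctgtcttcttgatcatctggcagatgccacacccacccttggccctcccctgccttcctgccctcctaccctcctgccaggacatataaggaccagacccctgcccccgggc
KRT20: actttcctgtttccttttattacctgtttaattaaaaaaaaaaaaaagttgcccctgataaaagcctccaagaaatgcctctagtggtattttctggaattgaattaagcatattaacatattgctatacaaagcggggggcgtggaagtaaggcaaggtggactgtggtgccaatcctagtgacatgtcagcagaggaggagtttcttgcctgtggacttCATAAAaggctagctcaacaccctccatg
GPA33: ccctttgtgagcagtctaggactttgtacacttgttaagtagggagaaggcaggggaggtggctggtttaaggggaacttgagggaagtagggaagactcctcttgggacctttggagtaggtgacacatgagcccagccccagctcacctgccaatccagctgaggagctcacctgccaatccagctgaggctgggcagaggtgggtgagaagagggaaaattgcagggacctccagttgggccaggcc
LGALS4: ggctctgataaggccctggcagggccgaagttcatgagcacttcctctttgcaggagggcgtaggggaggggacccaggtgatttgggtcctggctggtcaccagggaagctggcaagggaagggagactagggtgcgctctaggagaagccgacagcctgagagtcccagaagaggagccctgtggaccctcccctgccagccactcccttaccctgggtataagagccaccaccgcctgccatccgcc
The caudal core, searched on both strands, occurred once in MUC2, at 176 bases before the start, and once in KRT20, at 29 bases before it, and in neither of the other two. It occurred in 9.64% of all RefSeq windows of this length. The TCF/LEF core CTTTGAT, also searched on both strands, a sequence that does not contain the caudal core, occurred in none of the 4 windows and in 2.26% of all. CG pairs numbered 6 in MUC2, 2 in KRT20, 0 in GPA33 and 6 in LGALS4, against a median of 11. The nearest peak of any library lay 11898 bp from the window in MUC2, 6612 bp in KRT20, 435 bp in GPA33 and 4243 bp in LGALS4. Over all RefSeq promoters 7.96% had a peak in at least 1 list.

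Among the transcription factors, CDX1, a homeobox regulator of intestinal differentiation (chromosome 5, 150166778 to 150184558, hg38), had a peak in 1 PC3 DM library, ecSE1 replicate 2. It was 210 bp wide, had 5 fragments at its summit and lay in the flank above the upper end of the gene. ASCL2, the stem cell factor (chromosome 11, 2268498 to 2270588), is the shortest of the 9 genes at 2091 bp and had no peak within 2 kb in any library. Peaks did lie farther out. With flanks of 10 kb, ASCL2 gained a peak in 10 of 18 COLO320 DM libraries but in only 2 of 16 from PC3 DM, a difference of 43.1 percentage points (Fisher's exact test, two-sided, p = 0.0129, Benjamini-Hochberg adjusted p = 0.0989). The region near ASCL2 was singled out after its values were seen, so this p-value is descriptive only. With these flanks 989 of 13718 coding genes tested (7.21%) were called, and ASCL2 was not among them. CDH17 differed by a similar amount the other way, -42.4 points (Fisher's exact test, adjusted p = 0.107). All the ASCL2 peaks lay above the upper end of the gene. The COLO320 DM peaks had 17 to 36 fragments at the summit and the PC3 DM peaks 10 and 18. In 3 COLO320 DM libraries they shared a stretch of 236 bp, 2278146 to 2278381, which is 7558 bp from the gene. At equal length 2 lists kept a peak on it. Farther out, 3 COLO320 DM libraries shared 9 bp, 2279782 to 2279790. Another 163 bp, 2279828 to 2279990, were shared by 3 COLO320 DM libraries and had a peak in PC3 DM ecSEcombo replicate 2. On each of these, 1 list kept a peak at equal length.

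LGR5, the R-spondin receptor of crypt stem cells (chromosome 12, 71439129 to 71586310), is the longest member at 147182 bp. It had a peak in 11 of 16 PC3 DM and 3 of 18 COLO320 DM libraries. Both PC3 DM vector libraries had one, as did ecSE1 replicates 1 and 3, all 3 of ecSE2, ecSE6 replicates 2 and 3 and ecSEcombo replicates 1 and 2, and neither ecSE7 library. In COLO320 DM only vector replicate 3, ecSE1 replicate 2 and ecSE2 replicate 3 had one. Covered length in PC3 DM had a lowest value of 0, a median of 2.09 and a highest of 8.34 bp per kb, and in COLO320 DM 0, 0 and 6.63 bp per kb, so the libraries of the lines overlapped. The peaks were scattered: 29 peaks fell in 27 separate places, 25 of which had a peak in 1 library. The summits held 4 to 28 fragments, with a median of 8.

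Just below the window of LGR5 the picture differed. A stretch of 886 bp, 71436113 to 71436998, 2131 bp from the lower gene end and inside the annotated LOC124902962, was covered by peaks in at least 3 COLO320 DM lists along its length. In all 11 COLO320 DM libraries had a peak there, 1 of 3 vector and 10 of 15 perturbed, as had 4 PC3 DM libraries. The COLO320 DM peaks held 11 to 30 fragments at the summit, and 13 of the 15 lists kept one at equal length. A second stretch, 71435319 to 71435712, had peaks in 7 COLO320 DM and 5 PC3 DM libraries. With 10 kb flanks LGR5 counted 13 of 16 PC3 DM libraries against 12 of 18 COLO320 DM ones, a difference (COLO320 DM less PC3 DM) of -14.6 points in place of -52.1 (Fisher's exact test, adjusted p = 0.668). With the gene body alone it was also -52.1 points. The 2 peaks that entered the window only through its lower flank, in PC3 DM ecSEcombo replicate 2 and COLO320 DM vector replicate 3, belonged to this neighbouring region.

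**Figure D2:**
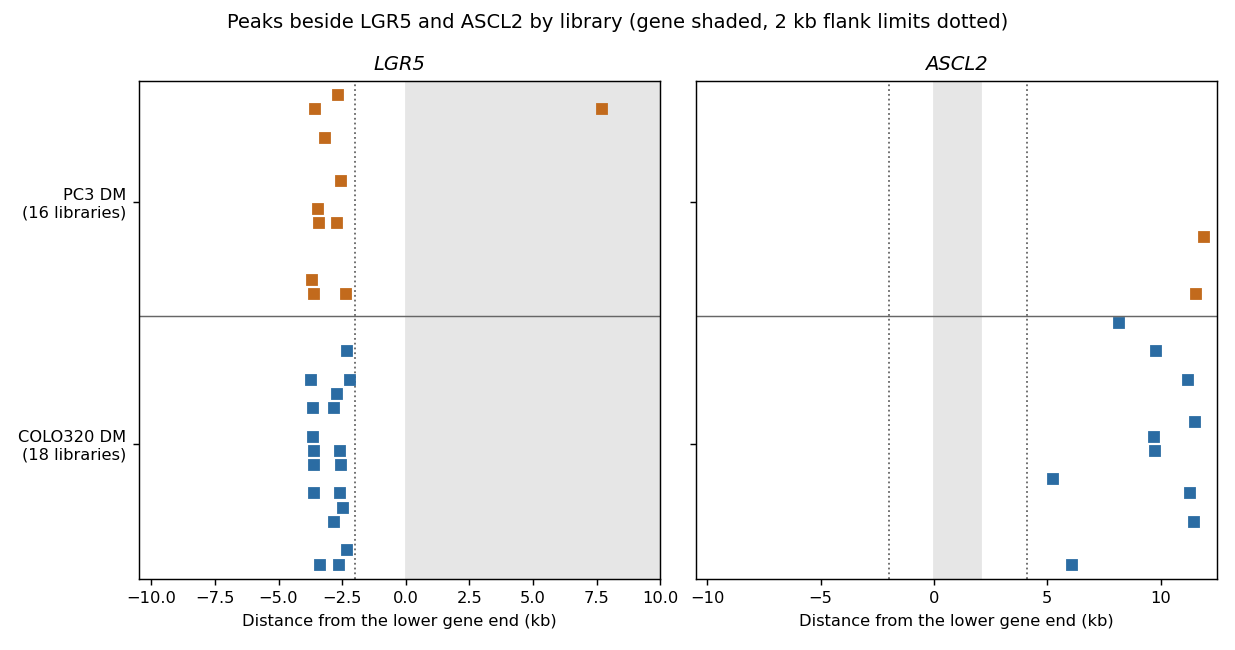
Position of each peak's middle (kb from the lower gene end, horizontal axis) beside LGR5 and ASCL2, with 1 row per library. Below LGR5 the peaks of both lines sit together just outside the dotted 2 kb limit, and near ASCL2 all peaks lie above the gene, in 10 COLO320 DM and 2 PC3 DM libraries.

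Of the structural proteins of the absorptive cell, VIL1, the actin-bundling villin of the brush border (chromosome 2, 218419123 to 218453295), had a peak in PC3 DM vector replicate 2, PC3 DM ecSE7 replicate 2 and COLO320 DM ecSE1 replicate 2. Only the first lay inside the gene, and the others lay beyond its upper end, where the window also reaches USP37. Each had 5 or 6 fragments at its summit. KRT20, a keratin of mature surface cells (chromosome 17, 40875889 to 40885242), had 1 peak, in COLO320 DM ecSE4 replicate 2. It lay inside the gene, 2484 bp from the lower end, was 8.16-fold over local background with 13 fragments, and was among the best 9385 peaks of its list.

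CDH17, the liver-intestine cadherin of epithelial cell adhesion (chromosome 8, 94127162 to 94217278), had the most peaks, 36 in all and none in the flanks alone. In PC3 DM 12 of 16 libraries had one: both vector libraries, 2 of 3 for each of ecSE1, ecSE2 and ecSE6, 1 of 2 for ecSE7 and all 3 of ecSEcombo. In COLO320 DM 7 of 18 had one: none of the 3 vector libraries, 1 of 3 for each of ecSE1, ecSE2, ecSE3 and ecSE4, and all 3 of ecSEcombo. The covered length in PC3 DM had a lowest value of 0, a median of 4.79 and a highest of 11.3 bp per kb, and in COLO320 DM 0, 0 and 11.7, so the lines overlapped. With ecSEcombo the covered length was 939 ± 180 bp for PC3 DM and 328 ± 61.0 bp for COLO320 DM (SD, n = 3 each). With the vector it was 285 ± 153 bp (SD, n = 2) in PC3 DM and 0 in all 3 COLO320 DM libraries. The single plasmids in PC3 DM gave 345 ± 299 (ecSE1), 372 ± 362 (ecSE2), 296 ± 276 (ecSE6) and 265.5 ± 375 bp (ecSE7, n = 2). In COLO320 DM they gave 366 ± 635 (ecSE1), 263 ± 455 (ecSE2), 174 ± 302 (ecSE3) and 138 ± 240 bp (ecSE4). The mean of ecSE1 there was thus above that of ecSEcombo. The list of PC3 DM ecSEcombo replicate 1 is the longest of that line, and at equal length it had no CDH17 peak. The other PC3 DM ecSEcombo libraries then covered 451 and 769 bp and the PC3 DM vector libraries 0. In COLO320 DM only ecSEcombo replicate 3 kept a peak at equal length, with 306 bp.

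About 15.7 kb from its lower end CDH17 had a recurrent site, a stretch covered in at least 3 lists of a line. It ran over 409 bp, from 94142902 to 94143310, and 6 PC3 DM and 2 COLO320 DM libraries had a peak on it. The PC3 DM peaks were 4.98- to 7.53-fold over local background with 6 to 12 fragments at the summit. The COLO320 DM peaks, in ecSE1 replicate 2 and ecSE4 replicate 1, were 4.65- and 5.97-fold with 7 and 10 fragments. At equal length 5 of the 8 libraries, all from PC3 DM, kept a peak there. The peaks chained with it by overlap came from 10 libraries, 8 of PC3 DM and 2 of COLO320 DM. The other peaks of CDH17 were spread along the gene. Apart from this site, the COLO320 DM libraries ecSE3 replicate 1 and ecSEcombo replicate 3 shared a stretch of 256 bp, from 94131713 to 94131968.

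GPA33, the A33 antigen of the intestinal cell surface (chromosome 1, 167052836 to 167090377), had a peak in 6 PC3 DM and 4 COLO320 DM libraries. Its 10 peaks lay in 10 separate places, each with 1 library, and had 4 to 14 fragments at the summit. Part of its window is shared with GPA33-AS1, and the assay does not tell the strands apart. At equal length 1 peak was left, in COLO320 DM ecSEcombo replicate 1.

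MUC2, the gel-forming mucin of goblet cells (chromosome 11, 1074874 to 1110508), had the opposite distribution, with peaks in 8 of the 18 COLO320 DM libraries and only 2 of the 16 PC3 DM ones. In COLO320 DM these were all 3 of ecSE1, replicates 1 and 3 of ecSE2, replicate 1 of ecSE3 and replicates 2 and 3 of ecSE4, and no vector or ecSEcombo library. In PC3 DM they were vector replicate 2 and ecSE2 replicate 2. The covered length in COLO320 DM had a lowest value of 0, a median of 0 and a highest of 17.0 bp per kb, and in PC3 DM 0, 0 and 10.8, so here too the lines overlapped. By plasmid, 504 ± 201 bp were covered with ecSE1, 363 ± 315 with ecSE2, 172 ± 298 with ecSE3 and 189 ± 163 with ecSE4 in COLO320 DM (SD, n = 3 each).

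The MUC2 peaks were almost all at 1 site. A stretch of 674 bp, from 1099649 to 1100322, lay 24.8 kb after the start of the gene and 10.2 kb before its end, and had peaks in 7 COLO320 DM libraries and in PC3 DM ecSE2 replicate 2. The summits fell between 1099733 and 1100309, and 7 of the 8 libraries kept a peak at equal length, all but COLO320 DM ecSE4 replicate 3. In COLO320 DM the fold was 3.72 to 5.99 and the summits held 19 to 33 fragments, the deepest of all 92 peaks among them. Their local background was also high, at 3.74 to 6.25 fragments. The PC3 DM peak was 7.72-fold, with 15 fragments over a background of 1.07. At every other COLO320 DM peak of the 9 genes the local background was 0.501 to 3.34 fragments. The part of local background in the recurrence was not tested. The place of the site among the exons of MUC2 is not given, because the annotation used here has gene ends only.

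LGALS4, galectin-4, a lectin that binds sugars on the brush border (chromosome 19, 38801674 to 38812945), had 1 peak, in COLO320 DM ecSE2 replicate 3. It lay in the flank below the lower end of the gene, had 7 fragments at its summit and was not among the best 9385 peaks.

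**Figure D3:**
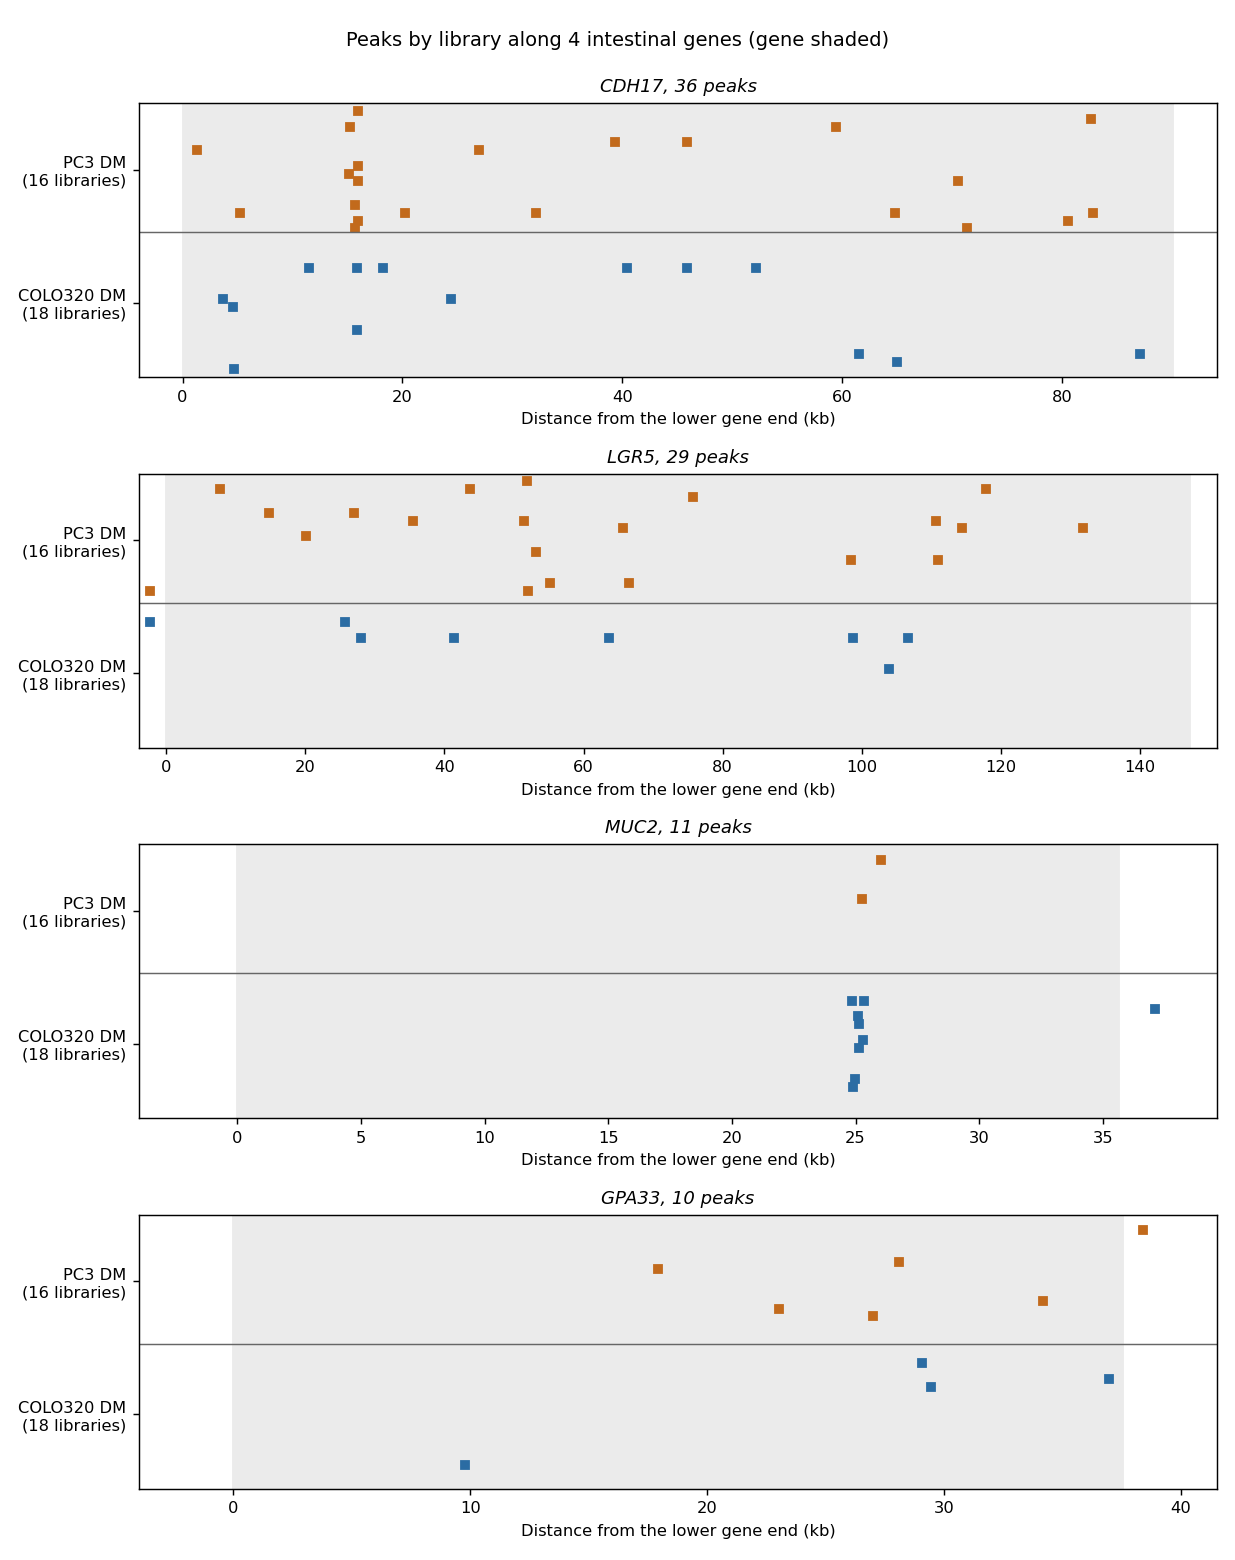
Position of each peak (kb from the lower gene end, horizontal axis) along CDH17, LGR5, MUC2 and GPA33, with 1 row per library and the gene shaded; squares mark the middle of a peak and not its width. MUC2 peaks stack at about 25 kb, CDH17 peaks at about 16 kb among scattered ones, and LGR5 and GPA33 peaks hardly share places.

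In each line 1 of the 9 genes, 11.1%, held a recurrent site, covered in at least 3 lists of that line. These were CDH17 in PC3 DM and MUC2 in COLO320 DM. Of all coding genes 11.8% held such a site in PC3 DM and 16.1% in COLO320 DM. At equal length the same share of members, 11.1%, stood against 6.92% of coding genes for PC3 DM and 10.4% for COLO320 DM, so the order of members and background turned round. With 9 genes, 1 gene is the whole of each share. Over all members the 92 peaks fell in 70 separate places, of which 63 had a peak in 1 library.

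Per kilobase, CDH17 was the most covered member in PC3 DM, with 4.62 ± 3.66 bp per kb (SD, n = 16), above 91.1% of coding genes. LGR5 followed with 2.45 ± 2.44 and GPA33 with 2.02 ± 2.78. MUC2, VIL1 and CDX1 had 0.921 ± 2.82, 0.619 ± 1.72 and 0.603 ± 2.41, and the other three 0. In COLO320 DM MUC2 came first with 5.17 ± 6.45 bp per kb (SD, n = 18), above 93.0% of coding genes. CDH17 had 2.25 ± 3.46, GPA33 1.46 ± 3.10, KRT20 1.02 ± 4.31, LGALS4 0.906 ± 3.84, LGR5 0.598 ± 1.66 and VIL1 0.274 ± 1.16, and CDX1 and ASCL2 had 0. Neighbours in either order differed by less than the SD between libraries. Single libraries carried several of these means. In PC3 DM, MUC2 was 0.259 without ecSE2 replicate 2, VIL1 0.276 without ecSE7 replicate 2 and CDX1 0 without ecSE1 replicate 2. In COLO320 DM, without ecSE1 replicate 2, LGR5 was 0.243 and VIL1 0. GPA33 there was 0.891 without vector replicate 3, KRT20 was 0 without ecSE4 replicate 2 and LGALS4 was 0 without ecSE2 replicate 3. At equal length CDH17 fell to 1.81 ± 2.66 bp per kb in PC3 DM and 0.181 ± 0.766 in COLO320 DM, and MUC2 in COLO320 DM to 4.37 ± 6.61. Over the 9 genes together the covered length was 2.28 ± 1.28 bp per kb for PC3 DM, against 2.69 ± 1.32 over all coding genes. For COLO320 DM it was 1.44 ± 1.69, against 2.22 ± 1.48.

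**Figure D4:**
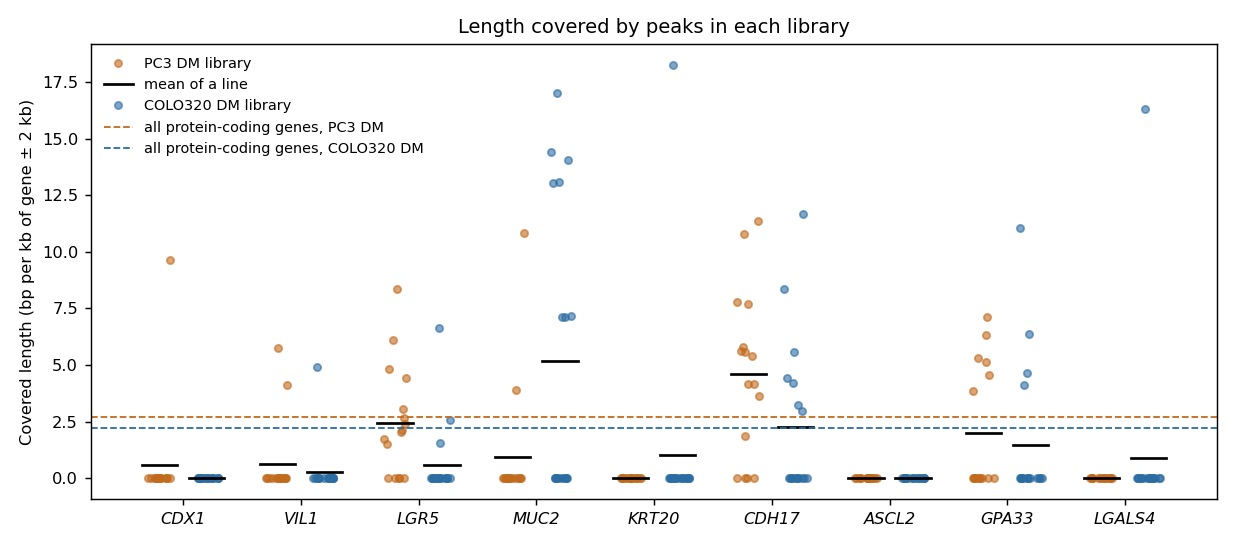
Covered length (bp per kb of gene with 2 kb flanks, vertical axis) for each of the 9 genes, 1 point per library; short black lines are the mean of a line, dashed lines the mean over all protein-coding genes, and points are shifted sideways only to keep them apart. The mean is highest for CDH17 in PC3 DM (4.62) and for MUC2 in COLO320 DM (5.17), and in every gene the libraries of the 2 lines overlap.

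The prostate and the colorectal line were compared gene by gene, over vector and perturbed libraries together. The plasmid sets differed, with ecSE6 and ecSE7 only in PC3 DM and ecSE3 and ecSE4 only in COLO320 DM. Line and plasmid set can thus not be fully told apart. The lists were also longer in PC3 DM, with a mean of 36008 peaks against 25454. The test called 704 of 10067 coding genes tested, 6.99%, of which 126 (1.25%) had a peak in a higher share of COLO320 DM libraries and 578 (5.74%) of PC3 DM libraries. Of the 9 members 5 could be tested, having 3 or more libraries on either side, and 0 passed. An unadjusted p under 0.05 was reached by 2 of these 5, and by 2624 of the 10067 coding genes tested. LGR5 came nearest, with a difference in share (COLO320 DM less PC3 DM) of -52.1 points (Fisher's exact test, two-sided, p = 0.00447, adjusted p = 0.0600). CDH17 differed by -36.1 points (Fisher's exact test, p = 0.0454, adjusted p = 0.177) and MUC2 by 31.9 points (p = 0.0630, adjusted p = 0.227). GPA33 differed by -15.3 points (adjusted p = 0.671 by Fisher's exact test) and VIL1 had an adjusted p of 0.767. With any 1 of the 5 PC3 DM lists that lack an LGR5 peak, or of the 3 COLO320 DM lists that have one, left out, LGR5 passed the threshold, with an adjusted p of 0.0186 to 0.0291 by Fisher's exact test. Those libraries were PC3 DM ecSE1 replicate 2, ecSE6 replicate 1, ecSE7 replicates 1 and 2 and ecSEcombo replicate 3, and COLO320 DM vector replicate 3, ecSE1 replicate 2 and ecSE2 replicate 3.

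With lists of equal length 627 of 4711 coding genes tested, 13.3%, were called, and again 0 members. LGR5 then had a peak in 5 of 16 PC3 DM and 1 of 18 COLO320 DM libraries (Fisher's exact test, adjusted p = 0.225), CDH17 in 6 and 1 (adjusted p = 0.144) and MUC2 in 1 and 6 (adjusted p = 0.225). The COLO320 DM library counted for LGR5 was vector replicate 3. Its peak lay outside the gene, in the region below it, and reached 22 bp into the window. GPA33 turned round, with 0 of 16 and 1 of 18. CDX1 and VIL1 kept 1 PC3 DM library each and KRT20 its COLO320 DM library.

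Perturbed and vector libraries were compared within each line. In COLO320 DM MUC2 had a peak in 8 of 15 perturbed and 0 of 3 vector libraries (Fisher's exact test, two-sided, p = 0.216) and CDH17 in 7 of 15 and 0 of 3 (p = 0.245). LGR5 had one in 2 of 15 and 1 of 3, and GPA33 in 3 of 15 and 1 of 3. In PC3 DM LGR5 had a peak in 9 of 14 perturbed and 2 of 2 vector libraries, CDH17 in 10 of 14 and 2 of 2, and GPA33 in 5 of 14 and 1 of 2. The adjusted p by Fisher's exact test was 1 for each member tested. Across coding genes the test called 0 of 4621 (0%) for COLO320 DM and 0 of 7812 (0%) for PC3 DM, with 49 and 23 genes at an unadjusted p under 0.05. With 3 vector libraries in COLO320 DM and 2 in PC3 DM the smallest p a gene could reach was 0.00123 and 0.00833. In simulated data 0% of complete separations in PC3 DM were recovered, and 6% of differences of 60 points in COLO320 DM.

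Per library, 2.13 ± 1.02 of the 9 genes had a peak in PC3 DM (SD, n = 16). The number was 1.39 ± 1.38 for COLO320 DM (SD, n = 18), where 5 libraries had none. That is 23.6% and 15.4% of the members, against 25.1% ± 8.95 and 16.6% ± 7.93 of all coding genes. The highest count was 5, in PC3 DM vector replicate 2, with 55455 peaks, and COLO320 DM ecSE1 replicate 2, with 125214. None of these remained in either library at equal length, where the means were 0.875 ± 0.806 and 0.556 ± 0.616.

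**Figure D5:**
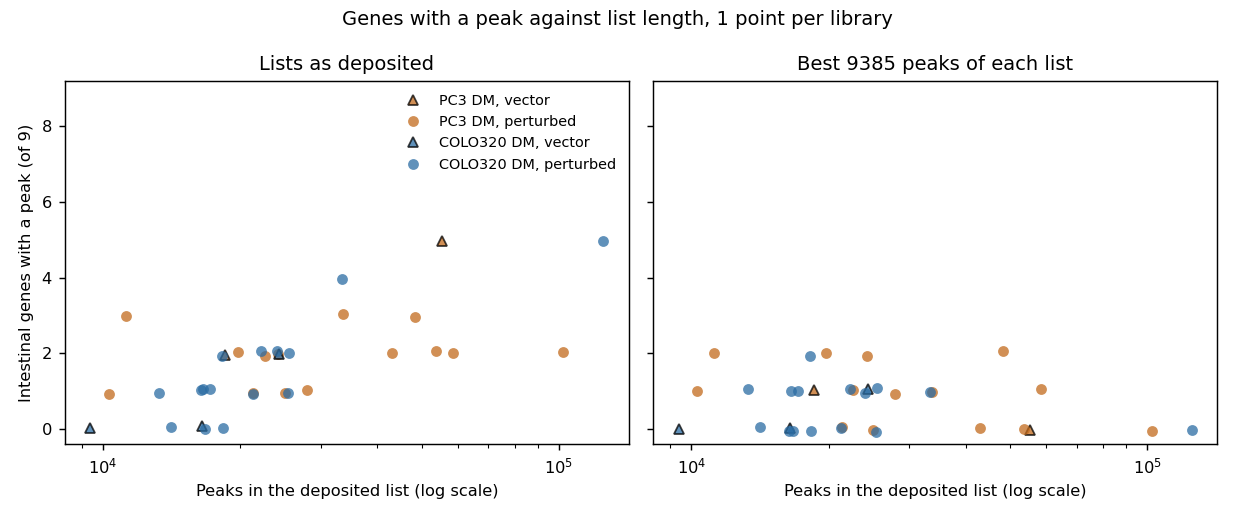
Number of the 9 genes with a peak (vertical axis) against the number of peaks in the library's list (horizontal axis, log scale), 1 point per library (triangles for vector, circles for perturbed), with the lists as deposited and at equal length; points are shifted slightly to keep them apart. The 2 libraries with 5 genes have 55455 and 125214 peaks, and at equal length no library has more than 2.

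A wider list of 50 further intestinal genes gave 31 that could be tested, of which 0 were called with a higher share in COLO320 DM and 3 with a higher share in PC3 DM, against 1.25% and 5.74% of the 10067 coding genes tested. EPS8L3, SLC15A1 and RDH16, already named for these data as marked in 1 line, had been kept out of this list. Its counts therefore depend in part on how it was drawn. Called or not, 14 of the 50 had the higher share in COLO320 DM, 27 in PC3 DM and 9 in neither. Over all 19974 coding genes these numbers were 3158, 12449 and 4367, so coding genes in general also leaned to PC3 DM. The 3 called were A1CF, an RNA-editing cofactor, with 2 COLO320 DM and 11 PC3 DM libraries (Fisher's exact test, adjusted p = 0.0277), CA1, a carbonic anhydrase, with 0 and 7 (adjusted p = 0.0364), and GATA4, a transcription factor of the proximal gut, with 0 and 7 (adjusted p = 0.0364). The median gene of the list had a peak in 1 COLO320 DM and 3 PC3 DM libraries, against 1 and 2 over all coding genes and over the 9 members. Of 13 prostate genes 7 could be tested and 0 were called. Called or not, 1 of the 13 had the higher share in COLO320 DM, 8 in PC3 DM and 4 in neither. The largest differences were those of TRPM8, an ion channel, with 3 COLO320 DM and 11 PC3 DM libraries (adjusted p = 0.0600 by Fisher's exact test), and FOLH1, the prostate-specific membrane antigen, with 2 and 6 (adjusted p = 0.263). TMPRSS2, a serine protease, went the other way, with 6 and 3 (Fisher's exact test, adjusted p = 0.667).

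Genes with the most similar set of libraries were sought for the 4 members with a peak in at least 8 lists, by the Jaccard index over 34 libraries, which share their list lengths. For LGR5 the closest was BIRC6, with 13 of 15 libraries shared (0.867), then MACF1 (0.824) and KIAA0232 (0.812), against a median of 0.143 over all genes. For CDH17 they were ZFP64 (0.762), GLIS1 (0.75) and ST20-MTHFS (0.731), against a median of 0.105. MUC2 had lower values, with ARID3A (0.667), TSPAN9 (0.625) and RHOA (0.583) against 0.091, and GPA33 had LOXHD1 (0.714), LOC107986768 (0.636) and ELAVL2 (0.6) against 0.1. All of these were picked as the highest values, so they exceed the median by construction. The genes named are 31.3 (LOC107986768) to 403 kb (MACF1) long, and the part of gene length was not tested. Between members, LGR5 and CDH17 shared 11 libraries, 78.6% of those of LGR5 and 57.9% of those of CDH17.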

How the data were processed

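The deposited data are 34 peak lists on hg38, 1 per library. The submitters' processing notes name MACS2 2.2.7.1, Bowtie2 2.3.5, Trim Galore 0.6.6, bedtools and SAMtools. The names of the authors' lists state an FDR of 0.001. Per peak, the authors' lists hold a display score (not used), a fold ratio over local background, -log10 of the p-value and q-value, and a summit offset. The sources used here do not say whether a control library was used.

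Peaks were joined to RefSeq genes (GRCh38.p14, the build of hg38) with 2 kb each side. Fragments at a summit were recovered from the fold and p-value within 0.0005 in -log10 p. Presence of a peak was tested by Fisher's two-sided exact test, with Benjamini-Hochberg adjustment over every gene that had a peak in 3 or more libraries and lacked one in 3 or more, at a threshold of 0.05. Covered length, recurrent stretches and promoter motifs are descriptions without a test. Equal-length lists hold the best 9385 peaks by q-value, then fold. Groups came from the titles. The members and gene lists were chosen with earlier results of these data known. Named were all 9 members, genes of the further lists that passed the line comparison (or the 3 with the largest difference), and the 3 most similar genes on other chromosomes or at least 1 Mb away. The stretches near LGR5 and ASCL2 were singled out after their values were seen.

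On simulated data of the line comparison (10067 genes), the test recovered 100% of complete separations and 53% of differences of 60 points, and called 2 of 9867 unchanged genes. For perturbed against vector, COLO320 DM recovered 100% of complete separations and 6% of differences of 60 points, and PC3 DM 0% of both. Computations ran in Python 3.11.15 with scipy 1.17.1, pandas 2.3.3, numpy 2.4.6 and matplotlib 3.10.9.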

Additional observations from a re-analysis of the deposited data

How the results depend on the processing

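Settings tried were equal-length lists, a q-value of 1e-05 or less, an overlap of 500 bp, the gene body alone, 10 kb flanks, leaving out ecSEcombo or the 2 lists with over 100000 peaks, a replicate block, a minimum of 1 library with and 1 without a peak, and each library left out. The line comparison called 464 coding genes at the stricter q-value, 1136 without the 2 longest lists, when 1 member (LGR5) was called with an adjusted p of 0.0337, 209 without ecSEcombo and 416 with the minimum of 1. With single libraries left out it called 510 to 1491 genes, the highest without COLO320 DM ecSE1 replicate 2, and 0 to 1 members. No other member was called under any setting of the line comparison. The vector libraries alone left no gene to test. Members per PC3 DM library were 0.875 at equal length, 0.25 with 500 bp of overlap and 3.5 in the vector libraries alone. Stretches covered in at least 2 lists numbered 4 in PC3 DM and 3 in COLO320 DM.

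These differences in points, none of them called, changed sign, and the cause was not tested. GPA33 between lines was 5.56 at equal length. In perturbed less vector libraries of PC3 DM, CDH17 was 42.9 at equal length, 57.1 at the stricter q-value and 14.3 with 500 bp of overlap, LGR5 was 14.3 with 500 bp of overlap, and GPA33 was 35.7 in the gene body alone and from -64.3 to 35.7 with 1 library left out. In COLO320 DM GPA33 was 6.67 at equal length, 13.3 at the stricter q-value and -30 to 20.0 with 1 library left out. LGR5 there was 40.0 with 10 kb flanks and -36.7 to 13.3 with 1 library left out.

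Correlations between libraries of the same replicate number ran from -0.0747 to 0.0537 in PC3 DM and -0.0449 to 0.0722 in COLO320 DM. Those between different numbers ran from -0.0537 to 0.0747 and from -0.0736 to 0.0645. In PC3 DM 4 of 16 and in COLO320 DM 9 of 18 libraries correlated best with their own number. The PC3 DM ranges for same and different numbers are mirror images, so their limits carry no separate information on pairing. No chance level was computed, so these values do not settle whether replicate numbers pair the libraries. They served only to compare replicate numbers and do not measure how alike the libraries of a line are. With the replicate block 604 genes and 0 members were called between lines (LGR5 adjusted p = 0.0673, exact conditional test) and 0 genes in either perturbed comparison.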
